A study of Rattus with 6 samples.

Results

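Scgb2a1 and Scgb2a2 encode secretoglobins of family 2A and were read as a pair from a count table of 30211 rat genes. They are 2 genes picked by symbol, for having been seen higher with dexamethasone in these same libraries. Their difference between the groups is therefore given below as a description, with no test. RNA was sequenced from BMSC, cultured mesenchymal stem cells of rat bone marrow labelled wild type, the stromal cells of marrow that can form bone, fat and cartilage. There were 3 libraries from cells kept for 4 days with 100 uM dexamethasone, a synthetic glucocorticoid, and 3 control libraries from cells kept for the same 4 days without it. The sources used here do not give strain, age, sex, passage or any vehicle in the controls. Whether the replicates are separate cultures or animals is not stated, so the p-values describe the spread among these libraries, which may be technical.

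Secretoglobins are small secreted proteins that form dimers around a cavity able to hold steroids and other hydrophobic ligands. They are best known as products of epithelium, in lung airways, prostate, uterus and mammary and lacrimal glands, and several are induced there by steroid hormones. In human, SCGB2A1 and SCGB2A2 are mammaglobin B and mammaglobin A. In rat, the RefSeq gene table (assembly GRCr8) gives Scgb2a1 the synonyms Psbpc3 and Psbp1, names of a subunit of the prostatic steroid-binding protein. That complex is a major secretion of the rat ventral prostate, in which the Psbpc3 chain pairs with a Psbpc1 or a Psbpc2 chain. The same table lists Scgb2a2 as a synonym of Scgb2a1, whereas the deposited table held them as separate genes, so the rat role of the Scgb2a2 row is left unstated.

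In the deposited table both genes lay on chromosome 1, with Scgb2a1 on the plus strand at 225899313 to 225902676 and Scgb2a2 on the minus strand at 225825356 to 225830355, by the coordinates of that table, whose rat build the sources do not name. They pointed away from each other, with start sites 68958 bases apart. The table listed 0 genes between them and 0 genes overlapping either, so reads of an overlapping listed gene, on either strand, did not enter their counts. Scgb2a1 had 3 exons of 137, 188 and 793 bases in the direction of transcription, 1118 bases in all, and its span of 3364 bases equalled that of Scgb2a1 in the RefSeq table. The 6 exons listed for Scgb2a2 merged into 4 blocks of 113, 188, 187 and 215 bases, 703 bases in all. The second block was 188 bases long in both genes and also in Scgb1a1, and no block of the other 7 secretoglobin genes in the table had that length. The sources do not say how reads that map to several genes were counted, so a part of the reads of one paralog may have been counted to another.

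Scgb2a1 was almost silent in control cells and moderately expressed with dexamethasone. It had 690, 663 and 680 counts in dexamethasone replicates 1 to 3, against 2 counts in each of the 3 control libraries. After scaling (CPM, counts scaled by TMM to a common library size) these came to 16.3, 18.8 and 16.7 CPM with dexamethasone and 0.052, 0.051 and 0.050 CPM in the controls. The groups did not overlap, and the lowest dexamethasone library stood far above the highest control. Over the groups the 2033 dexamethasone counts and 6 control counts gave a ratio, corrected for library size, of 339 (95% interval 116 to 1646, exact binomial on read pairs). The log2 fold change of the fit over all genes was 8.32. Every control value lay under the floor of 6 counts per library, taken as 3 read pairs, so the size of the ratio rests on very few control reads. In bulk RNA, a change in the number of expressing cells and a change in RNA per cell cannot be told apart.

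Scgb2a2 went the same way at a much lower level. It had 11, 15 and 14 counts in the dexamethasone libraries, against 0, 1 and 0 counts in the controls. The scaled values were 0.261, 0.425 and 0.345 CPM with dexamethasone and 0, 0.025 and 0 CPM in the controls. The groups did not overlap, but the whole difference rested on 40 counts against 1. The ratio of counts was 40.0. Its 95% interval was 3.20 to 829, which overlaps the interval of Scgb2a1. That interval was taken on read pairs, with the 1 control count rounded up to a pair, so it is not centred on 40.0. The fitted log2 fold change was 4.88, and without control replicate 2, the only control library with a count, it was 6.76, a value set by the prior count and no bound. In scaled CPM, dexamethasone replicate 2 was the highest of the 3 treated libraries for both genes and replicate 1 the lowest. In raw counts of Scgb2a1 the order was reversed, with 690 in replicate 1 and 663 in replicate 2, the shallowest library. For Scgb2a2 the order rests on 11, 15 and 14 counts. Of 14111 tested genes, 4768 (33.8%) were higher with dexamethasone without overlap between the groups. In dexamethasone replicates 1 to 3, Scgb2a1 had 62.7, 44.2 and 48.6 times the counts of Scgb2a2. Whether reads of Scgb2a1 made up some of the 40 counts of Scgb2a2 was not tested.

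**Figure D1:**
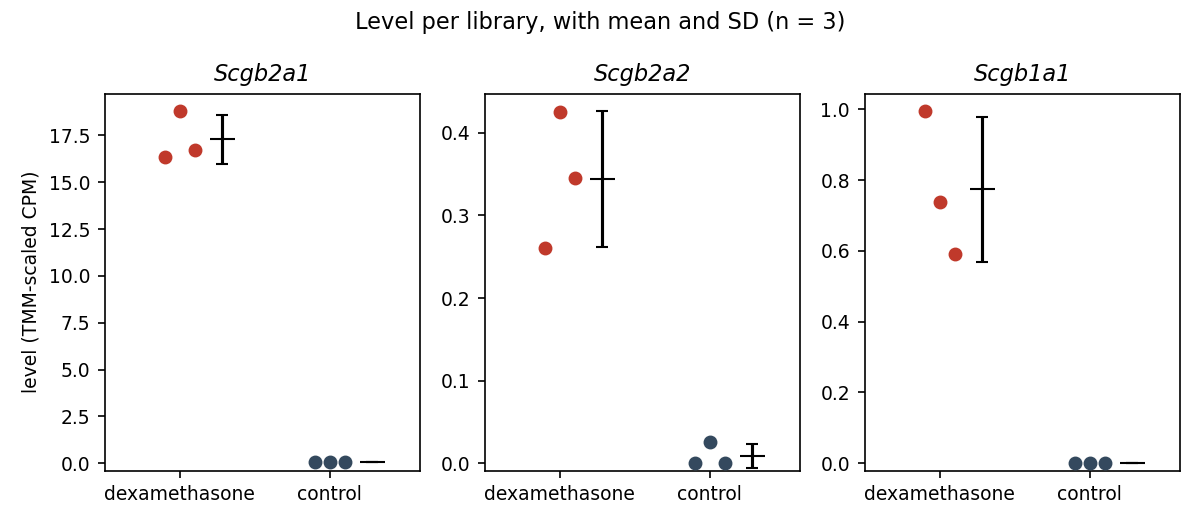
Level of Scgb2a1, Scgb2a2 and Scgb1a1 in each library, in TMM-scaled CPM on separate linear axes, with dexamethasone in red and control in dark blue. Points are libraries and bars are mean and SD of 3. The treated libraries reach 18.8 CPM for Scgb2a1 but only 0.425 CPM for Scgb2a2 and 0.995 CPM for Scgb1a1, while the controls lie at or close to 0 in each panel.

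The pair shared a direction and not a level. Per kb of exon, Scgb2a1 averaged 15.5 CPM and Scgb2a2 0.489 CPM in the dexamethasone libraries, against 0.0455 and 0.0120 CPM per kb in the controls. Within the treated libraries, Scgb2a1 exceeded Scgb2a2 per length by 39.4, 27.8 and 30.5 times, a mean of 32.6 ± 6.09 (SD, n = 3). By dexamethasone level per kb, Scgb2a1 stood above 75.9% and Scgb2a2 above 32.5% of the 19011 genes with a count in those libraries. Among tested genes the fitted log2 fold change of Scgb2a1 ranked 14 and that of Scgb2a2 ranked 68 of 14111, counted from the largest rise. Both belonged to the 56 tested genes with at most 6 counts in the controls together and at least 10 in each dexamethasone library. These cuts use the same difference the pair was chosen for, so membership and ranks are description only. Scgb2a1 met the first cut exactly, with 6 control counts. By dexamethasone CPM, Scgb2a1 was number 5 of these 56, just behind Hif3a, and Scgb2a2 was number 55.

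**Figure D2:**
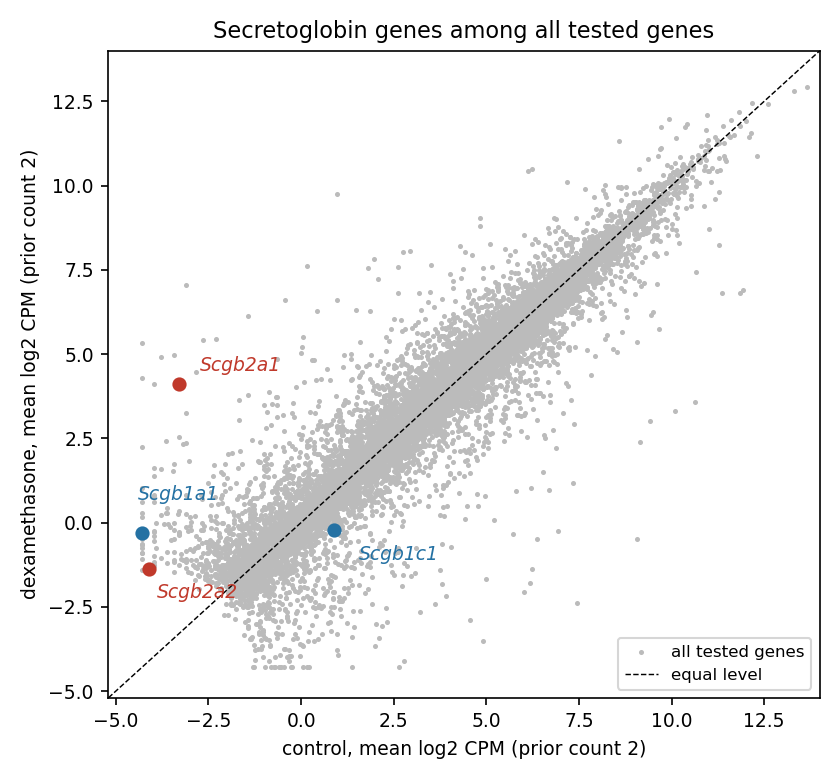
Mean log2 CPM (prior count 2) of all 14111 tested genes, with dexamethasone on the vertical axis and control on the horizontal axis; the dashed line marks equal levels. Scgb2a1 and Scgb2a2 (red) lie at the left edge, above the line, as does Scgb1a1 (blue), whereas Scgb1c1 (blue) lies below it.

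The table held 8 other secretoglobin genes, of which 4 had a count in any library and 2 had enough for the test. Of these, 1 rose and 1 fell, where 32.3% of all tested genes rose and 31.7% fell (64.0% called in either direction, at an adjusted p below 0.05). Scgb1a1, the club cell secretory protein or uteroglobin of lung airways, was the one that rose. It lies on the same chromosome at 225279676 to 225283326, on the minus strand. Its counts were 42, 26 and 24 with dexamethasone and 0 in all 3 controls, or 0.995, 0.737 and 0.591 CPM against 0 CPM. Set against a floor of 6 counts over the 3 control libraries together, this would be 15.3-fold higher. The 95% interval of the ratio, computed as for the pair, starts lower, at 11.97, so 15.3 is no firm bound. The rise of Scgb1a1 passed the test (Benjamini-Hochberg adjusted p = 7.1e-10, edgeR's quasi-likelihood test). The difference was larger than the spread between replicates, and its level per kb, 1.37 CPM with dexamethasone, was between those of the pair.

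Scgb1c1, of another subfamily and also on chromosome 1, was the one that fell. It had 0.450, 0.879 and 1.28 CPM with dexamethasone and 1.43, 1.82 and 2.25 CPM in the controls, groups that did not overlap, as for 33.1% of tested genes that were lower with dexamethasone, although replicates spread widely within each. Its log2 fold change was -1.08 ± 0.45 (SE, adjusted p = 8.5e-04, edgeR's quasi-likelihood test). Scgb3a1 was too low for the test, with 12 counts against 17, and Scgb2b24 had 0 counts against 1. Scgb1d2 and Scgb1d4, which carry the synonyms Psbpc1 and Psbpc2 in the RefSeq table and are the partner chains of the prostatic complex, had 0 counts in all 6 libraries. So did Scgb2b2 and Scgb3a2. By the floor per library, a level of up to 0.170 CPM could go uncounted in the shallowest library. Scgb1d2 and Scgb1d4 lie between Scgb1a1 and Scgb2a2, so counts above the floor appeared on both sides of them and not in them.

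The genes around the pair were compared next, since position was not used to choose it. The 10 nearest genes with a count on each side were all tested, and of these 20, 10 rose, 5 fell and 5 did not pass, where 32.3% of all tested genes rose and 31.7% fell. The rises include Best1 with Fth1 and Fen1 with AABR07006258.1, overlapping genes that may share reads. The 10 rises are therefore not all separate, which also bears on the median below. Scgb1a1, for which a rise was the only possible call, is also among the 10. The falls numbered 2 without dexamethasone replicate 2 and 3 without control replicate 2 or with library size alone, while the rises numbered 10 in each of these. The median log2 fold change was 0.17, against -0.00019 over all tested genes. With the biological coefficient of variation fixed at 0.2, 9 of them were called, each a rise. On the side of Scgb2a1 the nearest gene was Incenp, the inner centromere protein of dividing cells, 23.1 kb away on the minus strand. It had 442, 415 and 417 CPM with dexamethasone and 96.3, 111 and 99.5 CPM in the controls, a log2 fold change of 2.06 ± 0.068 (SE, adjusted p = 1.8e-19, edgeR's quasi-likelihood test). Next came Best1, a chloride channel gene, and Fth1, the ferritin heavy chain, whose listed spans overlap on opposite strands. Their counts were nearly the same, 116655 and 115714 with dexamethasone and 46850 and 46570 in the controls, and since no strand setting is stated their reads cannot be told apart. Fth1 had a log2 fold change of 1.31 ± 0.025. Fads1, a fatty acid desaturase, rose to 47.6 ± 0.666 CPM, against 23.8 ± 0.791 CPM in the controls (SD, n = 3). Fen1, a flap endonuclease of DNA replication, rose by 1.10 ± 0.14 (SE) on the log2 scale. Fen1 overlaps AABR07006258.1, which moved with it at 1.02. Each of these but AABR07006258.1 had an adjusted p of at most 3.0e-12 (edgeR).

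On the side of Scgb2a2 the nearest gene with a count was much farther away. Asrgl1, an asparaginase-like protein, lies 496 kb from Scgb2a2 and did not pass, with 19.7 ± 0.570 CPM with dexamethasone and 19.1 ± 0.536 CPM in the controls (SD, n = 3). Its log2 fold change was 0.05 ± 0.033 (adjusted p = 0.565, edgeR's quasi-likelihood test). Scgb1a1, 542 kb away, was the next, so the called rise of Scgb1a1 and the larger values of the pair flanked a gene that did not pass. Whether the changes of neighbours and pair share a source was not tested.

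**Figure D3:**
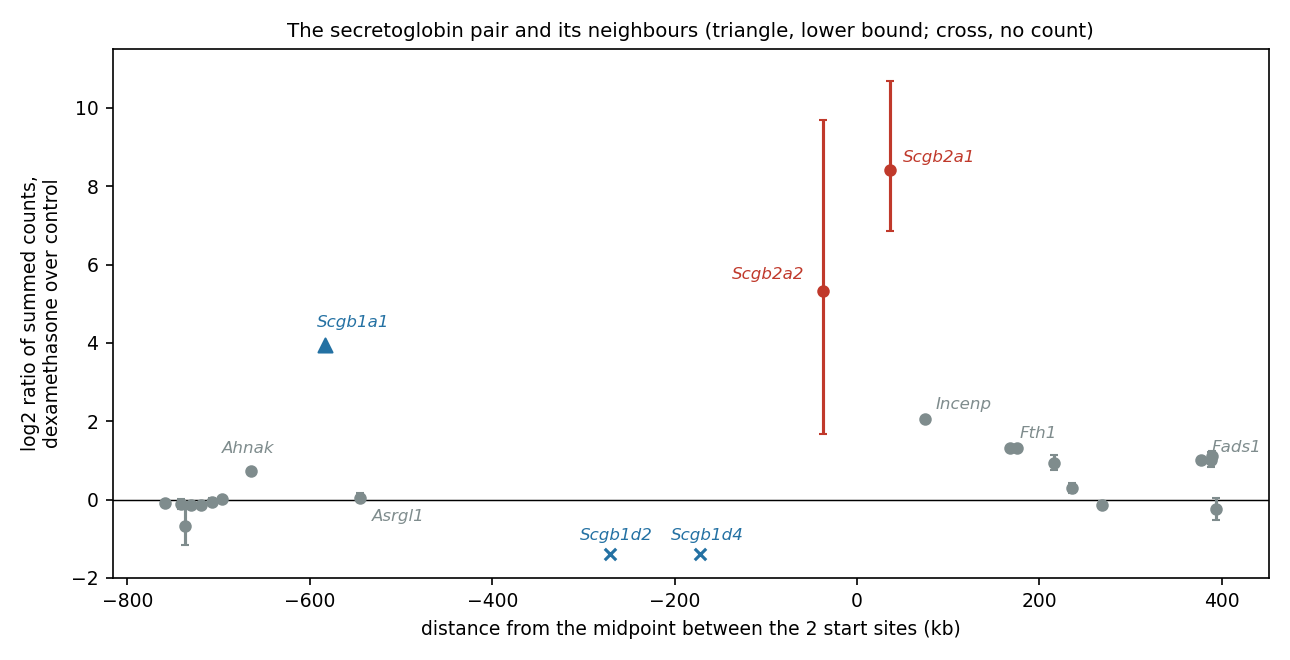
Log2 ratio of summed counts, dexamethasone over control, for the pair (red) and the 10 nearest genes with a count on each side (grey, and Scgb1a1 in blue), by distance in kb from the midpoint between the start sites of the pair. Bars are 95% counting intervals and crosses are genes without a count. The triangle is Scgb1a1, without a control count, set against the count floor at 15.3-fold (log2 3.94). It is no firm bound, since the 95% interval of Scgb1a1 starts lower, at 11.97-fold. Scgb2a1 stands highest at 8.40, Scgb2a2 at 5.32 with a wide interval, and the flanking genes other than Scgb1a1 stay at or below 2.06.

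Receptors for steroids were examined because these hormones regulate secretoglobins in glands. Of 6 listed, 3 were tested, of which 2 rose and 1 fell, too few to set against the 64.0% of all tested genes that were called. Pgr, the progesterone receptor, had 5.31, 5.61 and 4.78 CPM with dexamethasone and 0.570, 0.355 and 0.350 CPM in the controls, a log2 fold change of 3.62 ± 0.22 (SE, adjusted p = 1.4e-19, edgeR's quasi-likelihood test). Nr3c2, the mineralocorticoid receptor, which also binds glucocorticoids, rose by 0.94 ± 0.39 (SE) on the log2 scale at a low level, with 1.68 ± 0.411 CPM against 0.876 ± 0.353 CPM (SD, n = 3) in the controls. Nr3c1, the glucocorticoid receptor and the most abundant of the list, fell to 149 ± 2.81 CPM with dexamethasone, against 202 ± 2.79 CPM in the controls, a call that was lost where the coefficient was fixed at 0.2 (edgeR, adjusted p = 0.174). Esr1 and Esr2, the oestrogen receptors, had at most 2 counts in any library.

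Transcription factors of gland and airway epithelium were examined in the same way. Of 20 listed, 12 were tested, with 6 rises, 2 falls and 4 not passing, a median log2 fold change of 0.30 and a share of calls near the 64.0% of all tested genes. The 3 with the smallest p all rose. Cebpd, a C/EBP family factor, averaged 112 ± 8.47 CPM with dexamethasone and 33.2 ± 1.02 CPM in the controls (SD, n = 3). Cebpa, a member of the same family that acts on Scgb1a1 in lung, averaged 7.75 ± 1.74 and 1.72 ± 0.280 CPM. Ehf, an epithelial ETS factor, averaged 1.70 ± 0.102 and 0.195 ± 0.120 CPM. Their log2 fold changes were 1.76, 2.16 and 3.11, each larger than the spread between replicates (adjusted p of at most 1.3e-10, edgeR's quasi-likelihood test). Elf5 (log2 -3.55) and Klf5 (log2 -0.61) were the 2 falls. Ehf, with 6, 13 and 4 control counts, and Elf5, with 3, 1 and 0 dexamethasone counts, entered the test through their higher group. Their directions were therefore largely fixed by that. Foxa2, Tfap2a and Cebpb were the other rises (log2 1.19, 0.63 and 0.48), and these 5 are named with their values already seen. Nkx2-1, the main factor of lung epithelium, had at most 2 counts in any library.

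Since secretoglobins mark epithelium, markers of epithelium and glands were set beside the pair. Of 31 listed, 5 were tested, with 2 rises and 2 falls, where 64.0% of all tested genes were called. Lcn2, lipocalin 2, and Krt8, a keratin, had log2 rises of 0.99 and 0.91, and Cldn4, a tight junction protein, fell by 4.55. Sftpc, named after its value was seen, had 18 counts against 42 and an adjusted p of 0.0443, which missed the threshold in 7 of 12 other settings (0.0523 to 0.199). A sum was taken over 12 defining epithelial markers, of which Grhl2 came from the transcription factor list and not from the 31. The summed level was 4.38 to 5.47 CPM with dexamethasone and 10.7 to 12.5 CPM in the controls, mostly Krt8 and Cldn4. The other 10, among them Epcam, Cdh1 and Krt5, summed to 0.591 to 0.995 CPM with dexamethasone and 0.849 to 1.17 CPM in the controls. The other 20 of the 31 listed were genes of glands and lung, not all of them secreted products. Of these 20, 7 had no count in any library, namely Csn1s1, Csn2, Csn3, Wap, Ltf, Bpifa1 and Pbsn, the last of these the prostatic probasin. Apart from Lcn2, these gland and lung genes summed to 0.737 to 1.04 CPM with dexamethasone and 0.899 to 1.79 CPM in the controls. With Lcn2, which made up nearly all of that sum, they came to 842 to 891 CPM with dexamethasone and 401 to 473 CPM in the controls. Lcn2 and Krt8 thus moved with the pair while Cldn4 and the sums without Lcn2 did not, and their part in the result was not tested.

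Library totals ran from 34835072 to 41676315 counts, and both of these extremes were dexamethasone libraries. Fkbp5, Tsc22d3 and Per1, established targets of the glucocorticoid receptor, were higher in 3 of 3 dexamethasone libraries, with log2 fold changes of 4.30, 2.88 and 1.63. Markers of marrow stroma, 8 analysed of 9 listed, summed to 2384 to 2399.8 CPM with dexamethasone and 3868 to 3919 CPM in the controls. Of these 8, 1 rose and 6 fell, where 32.3% of all tested genes rose and 31.7% fell. Those with the smallest p were Pdgfrb, Col1a1 and Cd44, which fell (log2 -2.17, -0.78 and -0.59). Nt5e was the rise (log2 0.60) and Thy1 did not pass (log2 0.01), both named with their values already seen. Markers of blood and endothelium, 4 analysed of 5, summed to 0.737 to 0.829 CPM against 0.799 to 1.55 CPM. Col1a2, Pecam1 and Foxj1 were not analysed here.

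The genes whose profile came closest to each member were found by Euclidean distance of log2 CPM over the 6 libraries, a measure in which level counts as much as change. Closest to Scgb2a1 were AC126641.1 (distance 1.21), Adamtsl2 (1.44), a secreted matrix protein, Hif3a (1.76), a hypoxia-inducible factor subunit, RGD1565355 (1.79), listed as a synonym of Cd36l1 in the RefSeq table, and Steap4 (1.89), a metalloreductase. These had 17.2 to 31.2 CPM with dexamethasone and at most 0.0934 CPM in the controls. Closest to Scgb2a2 were AC134757.1 (0.671), Akr1c14 (0.795), a hydroxysteroid dehydrogenase, AABR07029467.1 (1.04), Clec1a (1.11), a C-type lectin, and Rnf125 (1.21), a ubiquitin ligase. These had 0.332 to 0.484 CPM with dexamethasone and at most 0.0169 CPM in the controls. The 2 secretoglobins were not close by this measure, at a distance of 9.61, which put Scgb2a2 at rank 2369 among the genes closest to Scgb2a1.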

How the data were processed

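The deposited table held raw read counts of 6 libraries, by gene, with exon coordinates and lengths, per the file headers. The sources used here do not give the aligner, counter or strand setting. The build named in the submitters' processing notes is mm10, a mouse build, although symbols and chromosomes are rat, so coordinates are printed as the table gives them. Groups came from the titles, because the treatment tag reads DEX for all 6 samples. 0 columns belonged to other samples.

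Of 30211 genes, 14111 passed filterByExpr. They were TMM-scaled and tested with edgeR 4.0.16 (R 4.3.3, quasi-likelihood, robust, no covariate), with Benjamini-Hochberg adjustment over all tested genes and a threshold of 0.05. Standard errors came from log2 CPM (prior count 2). DESeq2 1.42.0 was an alternative. Of values from 1 to 20 counts, 70.3% were even, against 50.6% of values of 1000 or more. The floor was therefore 6 counts (0.142 to 0.170 CPM). Intervals used the summed count of each group over 2, rounded up, whereas ratios used the counts themselves. Intervals and floors cover counting error only. Between replicates of a group, raw counts gave a chi-square of 2.69 to 4.14 per degree of freedom. Counting both reads of a pair raises this value, so the excess over sampling noise is smaller than it appears. The fit was also run on simulated data in which a small share of genes, none of them near 0 counts, was changed. That run does not cover genes near 0 counts in a group, or a change in most genes.

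Members and lists were chosen with earlier results of these data known. Genes named were the pair, other secretoglobins with a count, neighbours called at 2-fold or the 2 nearest on each side, the 5 closest profiles, and the 3 list members with the smallest p. Promoter and protein sequences were not used here. A listed gene is not reported here.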

Additional observations from a re-analysis of the deposited data

How the results depend on the processing

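Scgb2a1 kept its direction in all 12 alternatives, with log2 fold changes of 8.27 to 8.41, and Scgb2a2 in all 12, at 4.42 to 6.76; leaving out 1 library gave 8.27 to 8.37 and 4.42 to 6.76. The value of 6.76, without control replicate 2, compares with controls at 0 counts and depends on the prior count. The per-length ratio of Scgb2a1 to Scgb2a2 was 29.2 to 35.0 without 1 library, and 51.8 with no length correction, which follows from the unequal exon lengths. With the biological coefficient of variation set to 0.2, 3693 genes were called (1993 up, 1700 down) in place of 9027, and 9 of 20 neighbours in place of 15; that setting assumes more spread than the 3.66% estimated from these replicates. Scgb1a1 and Scgb1c1 were called in all 12 alternatives (adjusted p of at most 1.5e-07 and 0.0146). Of 40 tested genes named outside the pair, leaving out Nt5e and Thy1, 3 lost their call in some alternative. They were Nr3c1 and Cebpb (coefficient of variation of 0.2) and Sftpc (7 alternatives). Same-numbered samples did not deviate together (r of 0.0026, -0.0078 and 0.020), so the numbers were not taken as pairs; with the replicate block, 8991 genes were called and the log2 fold changes were 8.32 for Scgb2a1 and 4.91 for Scgb2a2. The planned search of promoters for motifs was not run. Depth limits Scgb2a2, with 40 counts over the treated libraries.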
